A study of Rattus norvegicus with 15 samples.

Results

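The transcripts described here are the 145 of 11574 genes in the deposited count table whose annotated type was lincRNA (97 genes), antisense (22) or processed_transcript (26), with 1 further row of these types left out by the rule. They were followed in H9c2, rat myoblasts first grown from embryonic heart tissue, in 15 cultures of wild-type cells without added alleles or transgenes. The groups were T0 (attached cells before differentiation), T7-RA and T14-RA (7 and 14 days in lowered serum alone) and T7+RA and T14+RA (the same with 1 uM all-trans retinoic acid, RA, added every day), with 3 cultures in each. RA was dissolved in DMSO, and whether the -RA cultures received this vehicle is not given in the sources used here. The model is 1 cell line in culture, so the groups hold no animals or donors. The study's methods call the 3 cultures of a group biological replicates, without saying how far they were kept apart. The p-values are therefore set against the spread between these samples only.

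Long noncoding RNAs are transcripts made and spliced much like messenger RNAs but without a long open reading frame. Some act in the nucleus on chromatin or as scaffolds of nuclear bodies, some bind proteins or other RNAs in the cytoplasm, and for most no function is known. A lincRNA lies between protein-coding genes, an antisense RNA is read from the strand opposite another gene, and the class processed_transcript holds spliced transcripts to which the annotation gave no open reading frame, including noncoding isoforms of protein-coding genes. In muscle cells some such RNAs are known as regulators of the step from dividing myoblast to myotube.

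The name noncoding did not hold for all of these genes. RefSeq (assembly GRCr8) listed 29 of the 145 by symbol, gene number or older symbol, all 29 on the chromosome of the deposited cytogenetic band, and 22 of them as protein-coding. The protein-coding entries were 19 of the 26 processed_transcript genes, 2 of the 97 lincRNAs and 1 of the 22 antisense genes, and they held 58.0% of the 38939 counts that fell on the 145 genes. Among them were Itgb5, Trrap, Smg1, Snx3, Top2b, Taf1 and Cep128. Other names carried known genes as well, since AABR07064873.1 matched Syne2, AABR07001382.1 matched Syne1 and Eef1aknmt is the older symbol of the entry Mettl13. RefSeq listed 6 of the lincRNAs as lncRNA, Tug1 among them. The other 116 genes, most of them known by a clone name only, had no match and are named as in the table. The library kit (TruSeq Stranded mRNA) selects polyadenylated RNA and marks the strand, but the strand setting of the counting is not given in the sources used here, so reads of an antisense gene and of the gene opposite to it cannot be told apart.

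Of the 20 genes called in a test below, 5 were protein-coding by RefSeq, and the 250 bases before their RefSeq start (GRCr8, written 5′ to 3′) are shown because they are the called genes whose start is known. Capitals mark CANNTG, the E-box read by myogenic factors such as Myod1, which reads the same on both strands. The other motif searched was AGGTCA on either strand, the hexamer bound by retinoic acid receptors.
Itgb5, chr11:80449374-80449623, minus strand: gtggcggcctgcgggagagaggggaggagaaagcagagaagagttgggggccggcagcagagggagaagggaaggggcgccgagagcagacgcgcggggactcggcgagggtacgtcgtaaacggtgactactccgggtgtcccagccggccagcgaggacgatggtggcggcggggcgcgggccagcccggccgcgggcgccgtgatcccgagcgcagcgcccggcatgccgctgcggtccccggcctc
Plekha6, chr13:47183159-47183408, plus strand: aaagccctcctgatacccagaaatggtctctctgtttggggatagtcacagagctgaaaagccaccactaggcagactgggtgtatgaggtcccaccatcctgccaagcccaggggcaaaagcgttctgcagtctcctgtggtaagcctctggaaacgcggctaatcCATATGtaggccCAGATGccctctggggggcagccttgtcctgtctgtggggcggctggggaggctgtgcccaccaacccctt
AABR07064873.1 (Syne2), chr6:100272479-100272728, plus strand: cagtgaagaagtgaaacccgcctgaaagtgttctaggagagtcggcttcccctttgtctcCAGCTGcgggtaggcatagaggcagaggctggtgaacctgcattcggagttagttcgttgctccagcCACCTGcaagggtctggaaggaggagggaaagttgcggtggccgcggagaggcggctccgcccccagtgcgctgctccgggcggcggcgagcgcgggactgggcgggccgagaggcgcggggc
Eef1aknmt (Mettl13), chr13:77433105-77433354, minus strand: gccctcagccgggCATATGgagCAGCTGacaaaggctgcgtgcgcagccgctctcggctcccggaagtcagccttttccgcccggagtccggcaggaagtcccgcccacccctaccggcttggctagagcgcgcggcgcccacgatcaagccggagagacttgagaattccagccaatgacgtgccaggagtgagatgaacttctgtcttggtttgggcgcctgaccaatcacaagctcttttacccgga
Cep128, chr6:116059759-116060008, minus strand: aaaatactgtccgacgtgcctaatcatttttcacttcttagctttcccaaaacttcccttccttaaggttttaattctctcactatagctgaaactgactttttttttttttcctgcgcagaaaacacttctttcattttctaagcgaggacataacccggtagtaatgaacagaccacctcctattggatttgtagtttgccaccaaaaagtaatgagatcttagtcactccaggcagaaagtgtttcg
CANNTG stood 2 times in the windows of Plekha6, AABR07064873.1 and Eef1aknmt and was not in those of Itgb5 and Cep128, and AGGTCA was in none of the 5. Over the 33469 windows of this length in the RefSeq table, 65.5% held CANNTG and 14.06% held AGGTCA. Of the 16 named genes with a window in that table, 9 held CANNTG and 1, Trrap, held AGGTCA. No overlap between the motifs was removed, and the start used in H9c2 was not measured.

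The 145 genes were weakly measured. Counts per library over all genes ranged from 508397 to 1030820, and the median gene of the 145 had 62 counts summed over the 15 libraries, against 376 for the 11126 protein-coding genes. A count of 0 in some library was found for 71 of the 145, only 21 had at least 10 counts in every library, and 43 had a mean of at least 10. Genes with a summed count of 20 or less had been removed by the authors, so that rarer RNAs are not analysed here. Reads carried no molecular identifiers, and every interval and floor below covers counting error only. Bulk RNA cannot tell fewer cells with a transcript from less of it per cell.

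Levels were compared between genes as CPM (counts scaled to the library total and by edgeR's TMM factors) per kilobase of the transcript length given in the table. The median lincRNA reached 3.45 CPM per kb, the median antisense gene 13.3, the median processed_transcript gene 10.8 and the median protein-coding gene 15.1. AABR07055846.2, an antisense gene at 7q11, had the highest level per length, 175 CPM per kb. Itgb5, which encodes the integrin beta 5 subunit of a vitronectin receptor, followed with 159 CPM per kb, and it alone held 16.1% of all counts on the 145 genes. Among lincRNAs the highest were AC134224.3 with 85.7 and AC134224.1 with 67.5 CPM per kb, while Tug1, a widely expressed nuclear and cytoplasmic lncRNA, reached 4.62.

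**Figure D1:**
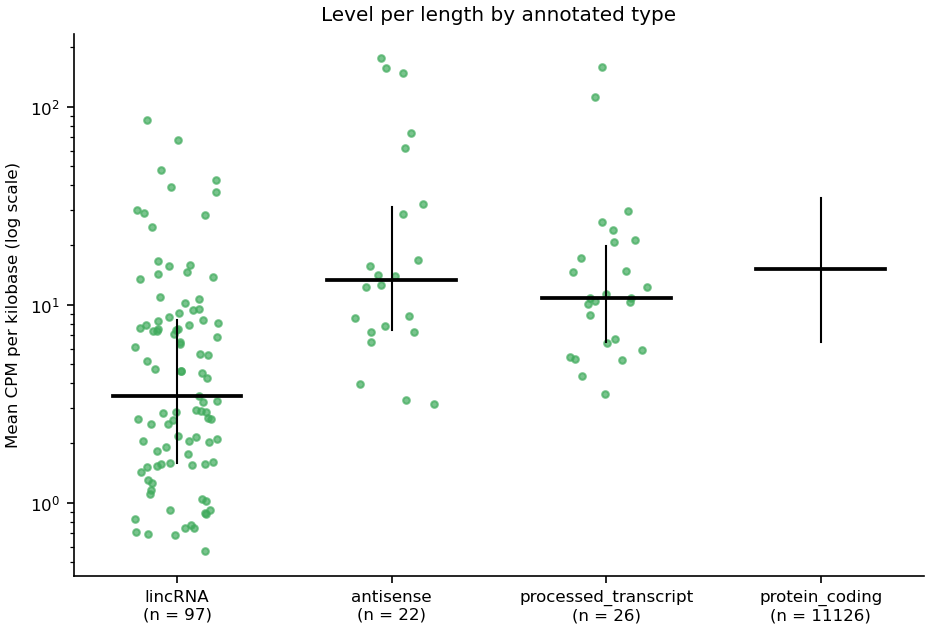
Mean CPM per kilobase over the 15 libraries (log axis) for each gene of the 3 noncoding types (points), with the median (thick line) and the quartiles (thin line) of each type and of the 11126 protein-coding genes, which are drawn without points. The lincRNA median of 3.45 lies below those of antisense (13.3), processed_transcript (10.8) and protein-coding genes (15.1).

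The cell label was checked against marker lists. Of 7 myoblast or skeletal muscle markers 4 were in the table (Myod1, Des, Cdh15 and Myog), of 7 cardiomyocyte markers only Gata4, of 5 fibroblast markers Col1a1, Dcn and Thy1, and of the endothelial and of the macrophage or blood markers none. Myog, the factor that starts myotube formation, had a mean of 48.6 CPM at T0, 436 at T7-RA and 638 at T14-RA (log2 change for T14 3.81, SE 0.15, edgeR adjusted p = 2.65e-29), and its part in the changes of the noncoding genes was not tested. Des, a muscle intermediate filament, also rose for T14 (log2 change 2.61), Cdh15, a myoblast cadherin, fell by 1.10 on the log2 scale, and Myod1 had a T14 change of -0.88 that was not called. Of the fibroblast markers, Dcn had no count at T0 and a mean of 50.5 CPM at T14-RA and 119.8 CPM at T14+RA, Col1a1 fell for T14 by 0.56 on the log2 scale, and with RA Dcn rose by 1.08 and Thy1 fell by 0.49. Mean Col1a1 was 29893 CPM at T0 and 20184 at T14-RA, far above each muscle marker measured. Mean Thy1 was 290 CPM at T0 and 270 at T14-RA.

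The first question was which of these genes moved with culture time and which with RA. The T0 cultures preceded the lowering of serum, so the T7 and T14 terms cannot tell culture time from lowered serum. For these terms, time stands below for both together. The model of the study was fitted to the counts of all 11574 genes with edgeR's quasi-likelihood test: a T7 and a T14 term give the change against T0, an RA term gives the change with RA over both days, and a gene was called at a Benjamini-Hochberg adjusted p under 0.001. T14 called 15 of the 145 genes (10.3%), 9 higher and 6 lower, where 17.3% of all genes were called. T7 called 7 (4.83%), 3 higher and 4 lower, against 8.73% of all genes, and 3 without T0 replicate 1, 4 with DESeq2 and 2 with limma on quantile-normalized values. RA called 7 (4.83%), 6 higher and 1 lower, against 6.39% of all genes, and 4 without T14-RA replicate 1 and 4 with limma on quantile-normalized values. Of these calls, AABR07015015.1 (T14) and AABR07002627.1 (RA) had 20 or fewer counts outside the libraries where they are high, so that they passed the authors' filter only through those libraries and had to differ. Altogether 20 of the 145 (13.8%) were called in at least 1 term, against 21.2% of all genes, and 125 in none.

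More of the deeper measured genes were called. Among the 43 genes with a mean count of at least 10, T7 called 14.0%, T14 30.2% and RA 14.0%, and among all genes of that depth the shares were 11.8%, 22.3% and 8.18%. Among the 102 genes under this count, the shares were 0.98%, 1.96% and 0.98%, against 0.689%, 4.29% and 1.72% of the 3195 genes of that depth. The median log2 change of the 145 genes was 0.12 for T7 (0.02 over all genes), 0.04 for T14 (0.05) and -0.05 for RA (-0.01), and with quantile-normalized values the T7 and T14 medians of the 145 were -0.13 and -0.23. By type, T14 called 5 of the 97 lincRNAs (5.15%), 8 of the 26 processed_transcript genes (30.8%) and 2 of the 22 antisense genes (9.09%). Of all genes, 17.3% were called. The 5 lincRNAs were all higher, but 3 of them are entries of 1 clone, AC134224. Another, AABR07015015.1, passed the filter only through its high libraries. Of the processed_transcript genes called, 3 were higher and 5 lower, and the 2 antisense genes went in opposite directions. RA called 4 lincRNAs higher and 1 lower (5.15%), 2 processed_transcript genes higher (7.69%) and no antisense gene, where 6.39% of all genes were called. Of the 22 antisense genes, 1 had an unadjusted p under 0.05 for RA (edgeR).

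With RA, Itgb5 was higher and AABR07021544.1 lower, and both changes were called at day 7 and at day 14. Itgb5 (ENSRNOG00000001795, band 11q22) had 808, 713 and 807 CPM in the T0 cultures, 408, 435 and 391 at T7-RA, 450.4, 453 and 447 at T14-RA, 701, 828 and 795 at T7+RA and 685, 740.2 and 635 at T14+RA. The level without RA was lower on both days than in every T0 culture, and with RA it lay near the T0 cultures and above every -RA culture of the same day. The log2 change with RA was 0.76 ± 0.08 (SE, adjusted p = 1.07e-11 by edgeR), with 0.91 at day 7 (edgeR adjusted p = 5.52e-11) and 0.61 at day 14 (edgeR adjusted p = 3.52e-06). The T7 and T14 changes were -0.84 ± 0.10 (SE, adjusted p = 3.44e-09 by edgeR) and -0.87 ± 0.10 (SE, adjusted p = 3.84e-10 by edgeR). These 2 terms give the change without RA, and the T7+RA and T14+RA levels of 775 ± 65.9 and 687 ± 52.9 CPM (mean ± SD, n = 3) stood beside 776 ± 54.7 at T0. Its calls held when any 1 library was left out, and limma on quantile-normalized values lost those for T7, T14 and RA at day 14.

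AABR07021544.1 (ENSRNOG00000049537, band 13q22), a lincRNA without a RefSeq match, was the only gene of the 145 called lower with RA. It had 199, 186 and 176 CPM in the T0 cultures, 174, 199 and 215 at T7-RA, 209, 195 and 189.7 at T14-RA, 79.8, 89.9 and 58.3 at T7+RA and 55.0, 66.0 and 65.3 at T14+RA. The T0, T7-RA and T14-RA cultures overlapped, and all 6 +RA cultures were below all 9 others. The RA change was -1.51 ± 0.11 (SE, adjusted p = 6.72e-17 by edgeR), and it was -1.34 at day 7 (SE 0.15) and -1.70 at day 14 (SE 0.16), both called. The difference between the days, -0.36 ± 0.23 (SE, adjusted p = 0.725 by edgeR), did not pass. Neither time term was called, with 0.12 for T7 and 0.02 for T14.

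The lincRNAs AC134224.1, AC134224.2 and AC134224.3 share a clone name and the band 1q43, held 2525 counts together, and all 3 rose with time. AC134224.1 (ENSRNOG00000062127) had 46.9, 48.8 and 62.9 CPM in the T0 cultures, 113, 83.3 and 109 at T7-RA, 189.8, 163 and 161 at T14-RA, 175, 179.9 and 163 at T7+RA and 305, 272 and 306 at T14+RA. Its groups did not overlap between T0 and either day, between T7-RA and T14-RA, or between -RA and +RA on either day. The changes were 0.96 ± 0.17 (SE, adjusted p = 1.95e-05 by edgeR) for T7, 1.73 ± 0.17 (SE, adjusted p = 4.99e-13 by edgeR) for T14 and 0.77 ± 0.10 (SE, adjusted p = 5.17e-09 by edgeR) for RA. It was also the only gene of the 145 called between T14-RA and T7-RA (log2 change 0.76 ± 0.14 (SE, adjusted p = 0.000101 by edgeR)), where 2.95% of all genes were called. That call was lost without T7-RA replicate 2 (edgeR adjusted p = 0.00653) or T14-RA replicate 1 (0.00657), and the T7 call without T0 replicate 1 (0.00116). The RA change was 0.76 at day 7 and 0.77 at day 14, both called, the former with an edgeR adjusted p of 0.0049 without T7-RA replicate 2 and of 0.00151 without T7+RA replicate 2.

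AC134224.3 (ENSRNOG00000062158) had 21, 5 and 5 counts in the T0 cultures, 35, 27 and 26 at T7-RA, 47, 44 and 43 at T14-RA, 57, 42 and 42 at T7+RA and 106, 68 and 57 at T14+RA. Its T0 cultures were uneven, with T0 replicate 1 above the other 2, and all T0 cultures were below all later ones. The T14 change was 1.87 ± 0.27 (SE, adjusted p = 8.71e-08 by edgeR) and the RA change 0.71 ± 0.15 (SE, adjusted p = 0.00021 by edgeR), and the T7 change of 1.20 just missed the threshold (edgeR adjusted p = 0.00112). The RA call was lost without T14-RA replicate 1 (edgeR adjusted p = 0.00206) or T7+RA replicate 1 (0.0018). AC134224.2 (ENSRNOG00000062155) had 5, 2 and 2 counts in the T0 cultures, 9, 14 and 10 at T7-RA, 30, 17 and 21 at T14-RA, 13, 7 and 15 at T7+RA and 33, 27 and 18 at T14+RA. It was called for T14, at 2.64 ± 0.42 (SE, adjusted p = 6.1e-07 by edgeR), and not for RA, where its change was 0.12 (SE 0.22). Of the summed counts of the 3 lincRNAs, AC134224.3 held 21.2 ± 12.0% at T0, 24.9 ± 1.41% at T7-RA, 25.3 ± 4.64% at T14-RA, 26.7 ± 3.39% at T7+RA and 24.0 ± 1.18% at T14+RA (mean ± SD, n = 3). The share of AC134224.2 was 6.60 ± 1.54% at T0, 9.69 ± 3.61% at T7-RA, 12.4 ± 1.11% at T14-RA, 6.81 ± 3.02% at T7+RA and 8.23 ± 1.59% at T14+RA. The day 7 groups overlapped, while every T14+RA share was below every T14-RA share. Whether the 3 entries are parts of 1 transcript was not tested.

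The 3 other genes called for RA had fewer counts. AABR07070131.1 (ENSRNOG00000053537, band 8q23) had 14, 15 and 20 counts in the T0 cultures, 21, 19 and 17 at T7-RA, 7, 12 and 11 at T14-RA, 32, 39 and 22 at T7+RA and 53, 27 and 13 at T14+RA. Its +RA CPM lay above the -RA CPM on each day, while T0 overlapped both. The RA change was 1.09 ± 0.22 (SE, adjusted p = 9.61e-05 by edgeR), and the call was lost without T14-RA replicate 1 (edgeR adjusted p = 0.00146) or T14+RA replicate 1 (0.00188). AABR07035338.1 (ENSRNOG00000039819, band 12p11), of the processed_transcript type, had 20, 20 and 13 counts in the T0 cultures, 34, 31 and 23 at T7-RA, 19, 19 and 18 at T14-RA, 33, 42 and 44 at T7+RA and 59, 36 and 26 at T14+RA. In CPM the +RA cultures were above the -RA cultures on each day, and T0 overlapped the -RA cultures. Its change of 0.75 ± 0.17 (SE, adjusted p = 0.000621 by edgeR) was the least stable of the RA calls, since leaving out any 1 of 8 libraries ended the call, with edgeR adjusted p from 0.00103 without T7+RA replicate 2 to 0.00507 without T14-RA replicate 1. It was also lost with DESeq2 (0.00308), limma-voom (0.00112) and limma on quantile-normalized values (0.00463). The other 6 libraries were T7-RA replicates 1 (0.00108) and 3 (0.00199), T14-RA replicate 3 (0.00134), T7+RA replicate 3 (0.0047) and T14+RA replicates 1 (0.00389) and 2 (0.0013).

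AABR07002627.1 (ENSRNOG00000060587, band 1q21) was a lincRNA with 58 counts in all, of which 49 fell in the +RA cultures and 9 in the others, so that it passed the authors' filter through the former only. It had 0, 0 and 0 counts in the T0 cultures, 1, 0 and 1 at T7-RA, 3, 3 and 1 at T14-RA, 6, 6 and 5 at T7+RA and 15, 7 and 10 at T14+RA. No T0 library held a count, and each +RA culture was above every -RA culture of its day. Against the floor of 3 counts per library, T14+RA was at least 2.77-fold higher than T0. The ratio of T7+RA to T7-RA was 9.51 (95% exact counting interval 2.26 to 84.9, from 17 and 2 counts), and that of T14+RA to T14-RA was 4.08 (1.77 to 11.0, from 32 and 7 counts). The edgeR RA change was 2.32 ± 0.48 (SE, adjusted p = 0.00022 by edgeR), and the call was lost without T14-RA replicate 3 (edgeR adjusted p = 0.00123). As the filter fixed the direction, these ratios and this call are descriptive.

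**Figure D2:**
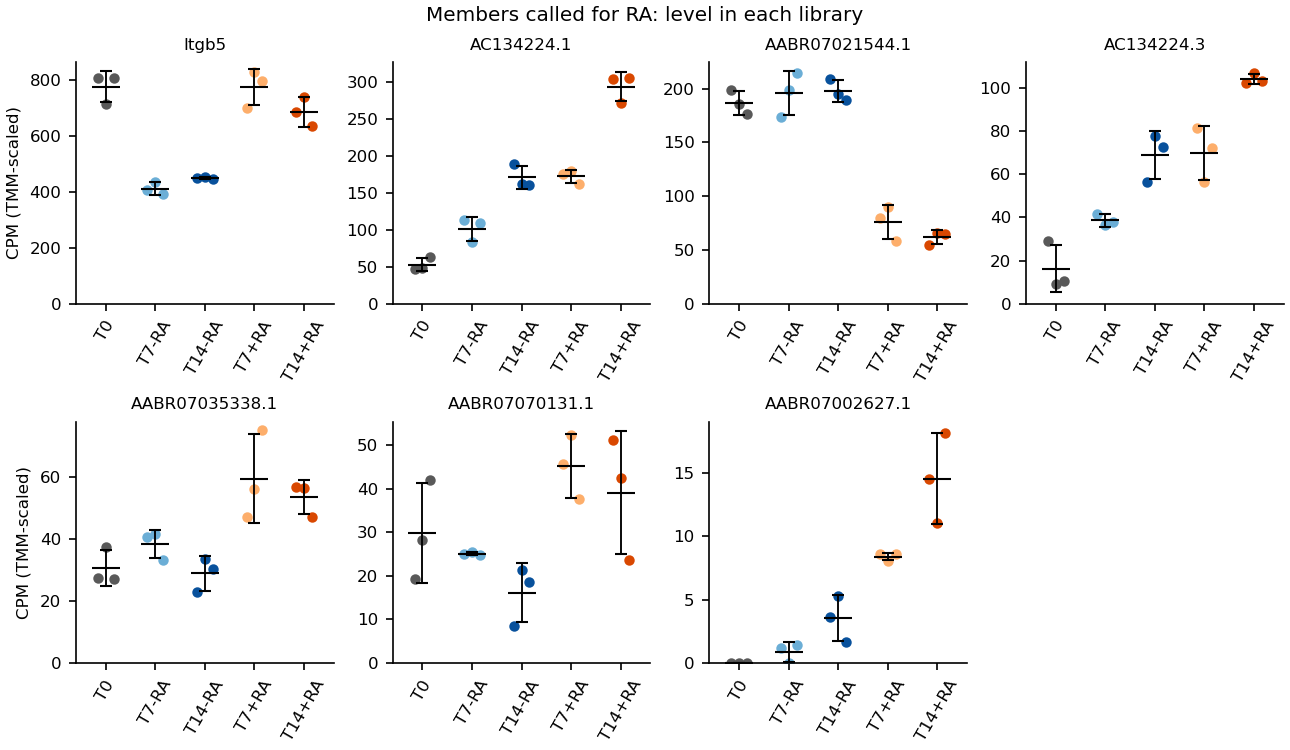
TMM-scaled CPM (linear axes from 0) of the 7 genes called for the RA term, 1 panel per gene and 1 point per culture, with the mean (bar) and SD (whiskers) of each group of 3. Itgb5 is at 411 ± 22.5 CPM at T7-RA and 775 ± 65.9 at T7+RA, and AABR07021544.1 is the only panel in which the +RA cultures are the lower ones.

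The RA change at a single day was tested with group means. At day 7 it called 3 of the 145 genes (2.07%), where 3.17% of all genes were called, and at day 14 also 3 (2.07%), against 4.81% of all genes. Both days called Itgb5 and AC134224.1 higher and AABR07021544.1 lower. Limma on quantile-normalized values called only 1 at day 14, AABR07021544.1, and lost AC134224.1 at day 7 (limma adjusted p = 0.0183). For the difference of the RA change between the days, called at an adjusted p under 0.05, 0.743% of all genes passed. None of the 145 passed with edgeR, where 8 had an unadjusted p under 0.05, nor with DESeq2 (4), limma-voom (11) or limma on quantile-normalized values (13). The nearest was AABR07001382.1, the Syne1 entry, whose product nesprin-1 ties the nuclear envelope to the cytoskeleton. It had 299, 235 and 264 CPM in the T0 cultures, 174, 191 and 224 at T7-RA, 261, 218 and 259 at T14-RA, 291, 252 and 324 at T7+RA and 236, 165 and 274 at T14+RA. RA cultures were higher than -RA cultures at day 7, with a change of 0.56 ± 0.13 (SE, adjusted p = 0.0029 by edgeR), and overlapped with them at day 14, with -0.14 (SE 0.14). The day 14 minus day 7 difference was -0.69 ± 0.19 (SE, adjusted p = 0.0748 by edgeR). It passed 0.05 without T0 replicate 2 (edgeR adjusted p = 0.0236), T7-RA replicate 3 (0.0371), T14-RA replicate 2 (0.048) or T14+RA replicate 3 (0.0129).

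Among the genes called for time alone, 5 fell against T0, and 4 of these were of the processed_transcript type. AABR07064873.1 (ENSRNOG00000005323, band 6q24), the Syne2 entry, whose product nesprin-2 also joins the nucleus to the cytoskeleton, had 171, 154 and 252 CPM in the T0 cultures, 139.6, 108 and 138 at T7-RA, 109, 92.1 and 89.7 at T14-RA, 117, 103 and 115 at T7+RA and 74.3, 55.0 and 105 at T14+RA. All T0 cultures were above all T7-RA and T14-RA cultures, and its T14 change was -0.99 ± 0.16 (SE, adjusted p = 1.23e-06 by edgeR). Eef1aknmt (ENSRNOG00000003042, band 13q22), a methyltransferase of the translation elongation factor eEF1A, had 91.0, 58.2 and 85.9 CPM in the T0 cultures, 40.6, 39.0 and 40.7 at T7-RA, 34.8, 19.5 and 30.5 at T14-RA, 31.4, 36.2 and 42.8 at T7+RA and 30.9, 25.1 and 19.9 at T14+RA. It fell by 0.98 for T7 (SE 0.21, adjusted p = 0.000335 by edgeR) and by 1.44 for T14 (SE 0.22, adjusted p = 3.8e-07 by edgeR), as log2 changes, without overlap between T0 and either day. Its T7 call was lost without T0 replicate 1 (edgeR adjusted p = 0.0128), T0 replicate 3 (0.0024) or any of T7-RA replicates 1 (0.00145), 2 (0.00136) and 3 (0.00137), and with library sizes alone as scaling (0.00133), DESeq2 (0.00183) or limma on quantile-normalized values (0.00944).

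Cep128 (ENSRNOG00000003908, band 6q31), a component of the centriole's appendages, had 23, 15 and 20 counts in the T0 cultures, 13, 17 and 19 at T7-RA, 4, 4 and 5 at T14-RA, 14, 14 and 12 at T7+RA and 20, 7 and 8 at T14+RA. The T14-RA cultures were the lowest, below every T14+RA culture in CPM, and the T14 change was -1.75 ± 0.34 (SE, adjusted p = 3.87e-05 by edgeR). Its RA change at day 14, 1.23 ± 0.45 (SE, adjusted p = 0.0659 by edgeR), did not pass. AABR07039210.1 (ENSRNOG00000037951, band Xq22), with no RefSeq match, had 56, 33 and 33 counts in the T0 cultures, 26, 25 and 22 at T7-RA, 17, 13 and 15 at T14-RA, 25, 25 and 18 at T7+RA and 23, 11 and 10 at T14+RA. In CPM it was at 69.4 ± 7.67 at T0 and 22.9 ± 2.49 at T14-RA (mean ± SD, n = 3), with changes of -1.07 ± 0.22 (SE, adjusted p = 0.000127 by edgeR) for T7 and -1.69 ± 0.23 (SE, adjusted p = 1.81e-08 by edgeR) for T14. The T7 call was lost without T0 replicate 1 (edgeR adjusted p = 0.00378) or T7-RA replicate 1 (0.00109). The antisense gene AABR07055846.2 (ENSRNOG00000062289, band 7q11) had 152, 120.1 and 174 CPM in the T0 cultures, 95.4, 82.0 and 65.4 at T7-RA, 46.8, 74.4 and 42.3 at T14-RA, 68.4, 61.8 and 58.3 at T7+RA and 47.3, 39.3 and 38.1 at T14+RA. It was lower at T7-RA and T14-RA than in every T0 culture, with changes of -0.87 ± 0.17 (SE, adjusted p = 6.28e-05 by edgeR) and -1.45 ± 0.18 (SE, adjusted p = 1.04e-09 by edgeR), the former lost without T0 replicate 1 (edgeR adjusted p = 0.00113), T0 replicate 3 (0.00147) or T7-RA replicate 3 (0.00117).

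Besides the AC134224 lincRNAs, 7 genes were called higher for T7 or T14, terms that give the change without RA. Plekha6 (ENSRNOG00000002907, band 13q13), which encodes a pleckstrin homology domain protein, had 18, 6 and 16 counts in the T0 cultures, 35, 20 and 30 at T7-RA, 65, 19 and 48 at T14-RA, 40, 43 and 27 at T7+RA and 70, 47 and 38 at T14+RA. T14-RA replicate 2 was near the T0 cultures, while the other T14 cultures were well above them. The T14 change was 1.40 ± 0.28 (SE, adjusted p = 7.65e-05 by edgeR), and the call was lost without T0 replicate 2 (edgeR adjusted p = 0.00163) or T14-RA replicate 1 (0.00105). LOC100363531 (ENSRNOG00000055485, band Xq22), an antisense gene, had 12, 12 and 3 counts in the T0 cultures, 30, 27 and 28 at T7-RA, 32, 19 and 25 at T14-RA, 24, 20 and 10 at T7+RA and 48, 23 and 26 at T14+RA. All T0 cultures were below all T14 cultures in CPM, and T7+RA overlapped T0. Its T14 change was 1.46 ± 0.32 (SE, adjusted p = 0.000173 by edgeR), lost without T0 replicate 1 (edgeR adjusted p = 0.00144) or T0 replicate 3 (0.00357). The lincRNA AABR07058158.1 (ENSRNOG00000062170, band 7q33) was the only gene called for T7 and not for T14, and it had 10, 15 and 13 counts in the T0 cultures, 37, 43 and 32 at T7-RA, 38, 27 and 24 at T14-RA, 42, 37 and 36 at T7+RA and 46, 35 and 20 at T14+RA. In CPM every later culture was above every T0 culture. Its T7 change was 1.20 ± 0.26 (SE, adjusted p = 0.000363 by edgeR) and its T14 change 0.96 ± 0.27 (SE, adjusted p = 0.00335 by edgeR), so that the 2 days lay near each other on either side of the threshold. The T7 call was lost without T0 replicate 1 (edgeR adjusted p = 0.0223) or T7-RA replicate 2 (0.0018).

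The last 4 had few counts at T0, and their calls were made by edgeR and lost with DESeq2, limma-voom and limma on quantile-normalized values. AABR07015507.1 (ENSRNOG00000051190, band 14q11) had 4, 4 and 5 counts in the T0 cultures, 13, 16 and 6 at T7-RA, 19, 20 and 16 at T14-RA, 9, 12 and 12 at T7+RA and 31, 15 and 20 at T14+RA. T14 cultures were above T0 cultures without overlap. Its T14 change was 1.87 ± 0.40 (SE, adjusted p = 0.000129 by edgeR), lost without T0 replicate 1 (edgeR adjusted p = 0.00397). AABR07051787.1 (ENSRNOG00000059243, band 3q11) had 3, 2 and 1 counts in the T0 cultures, 9, 7 and 15 at T7-RA, 13, 7 and 10 at T14-RA, 11, 12 and 5 at T7+RA and 30, 12 and 15 at T14+RA. Every later culture was above every T0 culture. The ratio of T14-RA to T0 was 4.36 (95% exact counting interval 1.79 to 12.8, from 30 and 6 counts), and the T14 call (log2 change 2.27 ± 0.53 (SE, adjusted p = 0.000435 by edgeR)) was lost without T0 replicate 1 (0.00278), 2 (0.00157) or 3 (0.00321). AC098547.1 (ENSRNOG00000045877, band 20p12) had 0, 1 and 0 counts in the T0 cultures, 8, 21 and 14 at T7-RA, 16, 8 and 3 at T14-RA, 8, 16 and 7 at T7+RA and 14, 8 and 6 at T14+RA. With 1 count at T0, its ratio at T7-RA was 32.9 (5.59 to 1327), and both terms were called with edgeR (adjusted p = 7.4e-06 for T7 and 4.24e-05 for T14), the latter lost without T0 replicate 1 (0.00197). AABR07015015.1 (ENSRNOG00000056503, band 14p11) had 34 counts in all, of which only 10 fell outside the T14 libraries that carried it past the authors' filter, with 0, 0 and 0 counts in the T0 cultures, 4, 2 and 1 at T7-RA, 12, 3 and 4 at T14-RA, 2, 1 and 0 at T7+RA and 2, 3 and 0 at T14+RA. T14-RA replicate 1 held 12 of the 19 counts at T14-RA, the other libraries of that group were at about the floor of 3 counts, and the T14 call (edgeR adjusted p = 0.000723) was lost without any of T0 replicates 1 (0.0064), 2 (0.00284) and 3 (0.0027), T7-RA replicate 1 (0.00105) or T14-RA replicate 1 (0.00948). As the filter fixed its direction, this call is descriptive. Against the floor, T14-RA was at least 1.84-fold higher than T0. The T14+RA libraries lay at or below the floor, so the rise was seen without RA only. The ratio of T14-RA to T14+RA was 4.25 (95% exact counting interval 1.54 to 14.6, from 19 and 5 counts). Its RA change, -1.63 ± 0.60 (SE, adjusted p = 0.0579 by edgeR), did not pass.

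**Figure D3:**
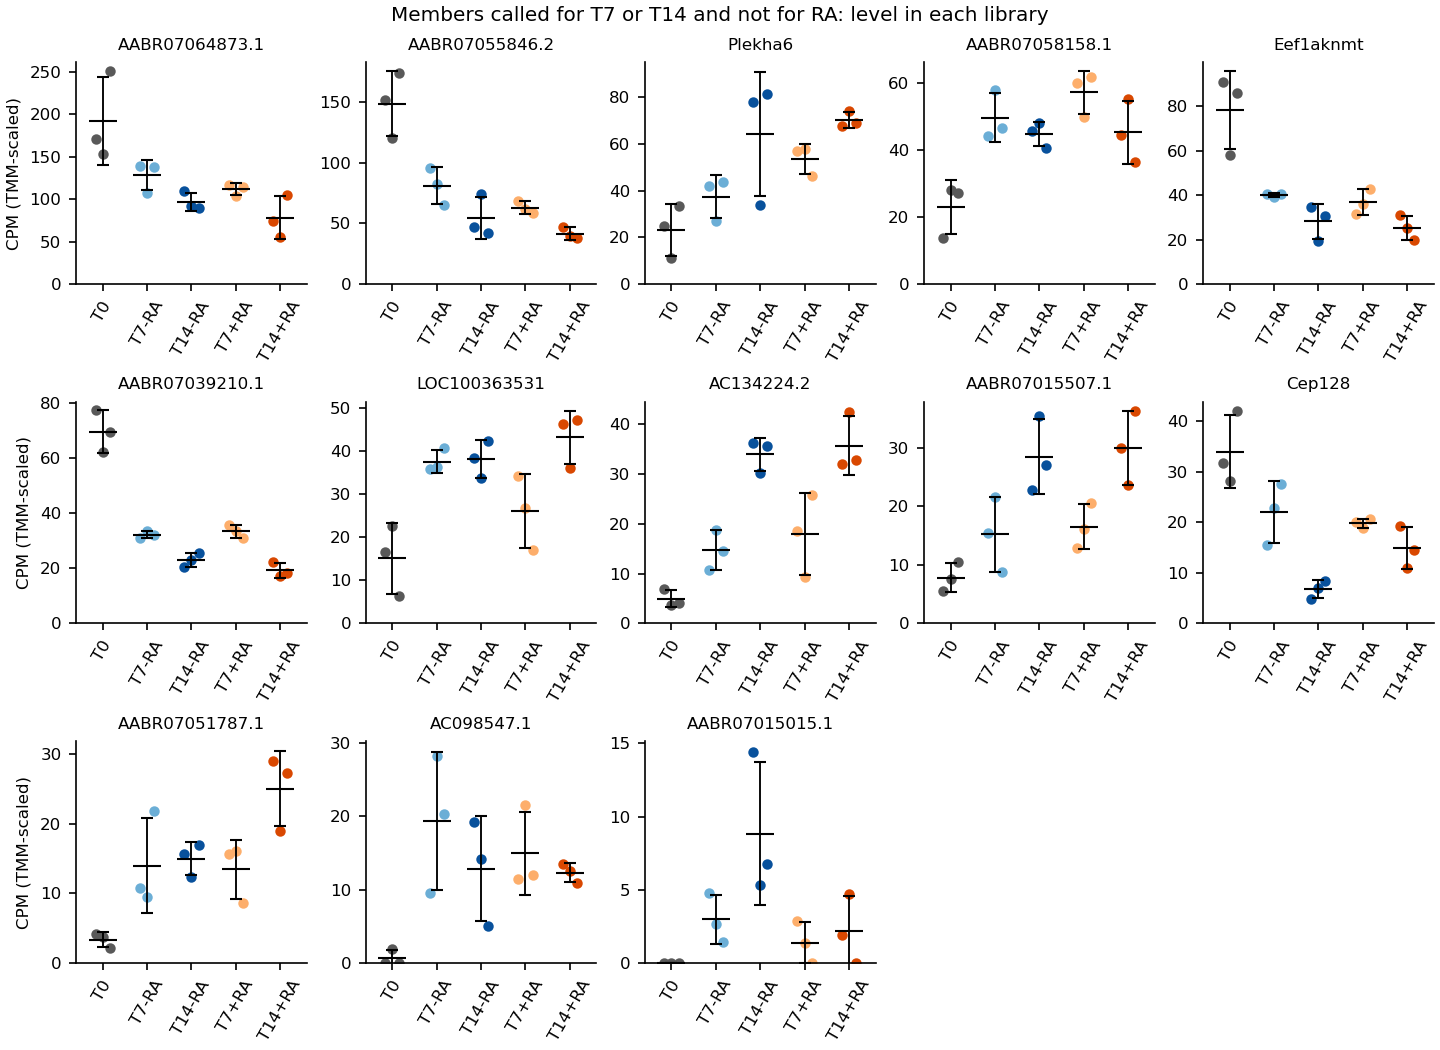
TMM-scaled CPM (linear axes from 0) of the 13 genes called for T7 or T14 and not for RA, 1 panel per gene and 1 point per culture, with the mean (bar) and SD (whiskers) of each group of 3. In 5 panels the level falls from T0, AABR07064873.1, AABR07055846.2, Eef1aknmt, AABR07039210.1 and Cep128, with T0 means from 33.9 to 192 CPM.

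Across the terms, 8 of the 145 genes (5.52%) were called for T14 alone, against 8.26% of all genes, 4 (2.76%) for T7 and T14, against 5.84%, and 4 (2.76%) for RA alone, against 3.05%. Called for all 3 terms were 2 (1.38%), Itgb5 and AC134224.1, against 2.03%, for T14 and RA 1 (0.69%), AC134224.3, against 1.18%, and for T7 alone 1 (0.69%), against 0.726%. None of these shares was above that of all genes, a comparison that takes no account of depth. At a mean count of at least 10, each term called a larger share of these genes than of all genes, as given above. Itgb5 moved in opposite directions with time and RA, while AC134224.1 and AC134224.3 rose with both. The T7 and T14 terms share the T0 cultures, so their calls are not independent of each other.

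Other tools lost some of these calls, none with a change of direction. AC098547.1 (T7 and T14), AABR07015507.1, AABR07015015.1 and AABR07051787.1 (T14) and AABR07035338.1 (RA) were called by neither DESeq2 nor limma-voom nor limma on quantile-normalized values. DESeq2 also lost Eef1aknmt and AABR07058158.1 for T7 and AABR07002627.1 for RA (9 calls, adjusted p from 0.00108 to 0.00441), and limma-voom also lost Plekha6 for T14 (7 calls, 0.00107 to 0.00412). Limma on quantile-normalized values lost 20 calls (0.00109 to 0.0334), which besides the 6 above were Itgb5, Eef1aknmt, AABR07058158.1 and AABR07055846.2 for T7, Itgb5, Plekha6, AABR07064873.1 and LOC100363531 for T14, and AABR07070131.1 and AC134224.3 for RA. Its other losses were AC134224.1 for RA at each day and for T14-RA against T7-RA, and Itgb5 for RA at day 14. AABR07021544.1 kept its RA calls with every tool.

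**Figure D4:**
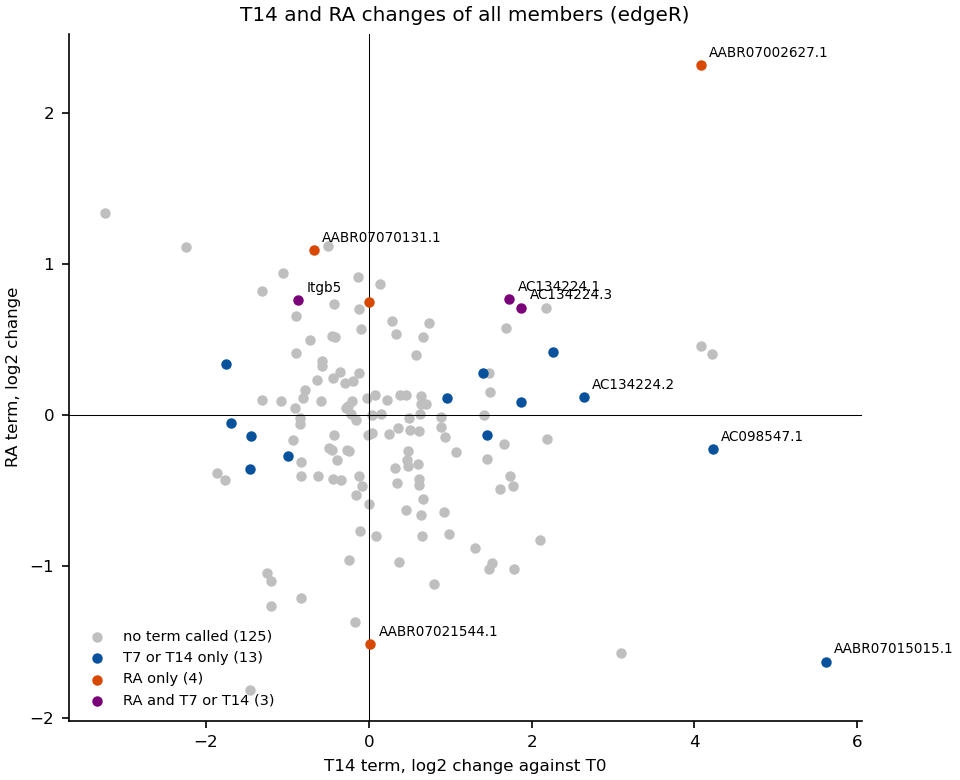
edgeR log2 change for RA (vertical axis) against that for T14 (horizontal axis) for all 145 genes, coloured by the terms that called them. Itgb5 lies at -0.87 and 0.76 while AC134224.1 lies at 1.73 and 0.77.

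Several of the best measured genes passed no test. Trrap, the scaffold of histone acetyltransferase complexes, ranged from 207 to 316 CPM over the 15 cultures, with changes of -0.16 (SE 0.13) for T14 and -0.03 (SE 0.09) for RA. Smg1, the kinase that phosphorylates Upf1 in nonsense-mediated decay, had -0.01 (SE 0.19) and -0.13 (SE 0.14). Taf1, the largest subunit of the general transcription factor TFIID, had -0.26 (SE 0.20) and 0.06 (SE 0.14). Top2b and Bves came nearest to an RA call. Top2b, a type II DNA topoisomerase, had 148, 144 and 94.3 CPM in the T0 cultures, 159, 156 and 174 at T7-RA, 145, 131 and 88.1 at T14-RA, 113, 110.1 and 132 at T7+RA and 96.5, 78.6 and 88.8 at T14+RA. The -RA cultures were above the +RA cultures at day 7 and overlapped with them at day 14, and the RA change was -0.47 ± 0.12 (SE, adjusted p = 0.00229 by edgeR). Bves, a membrane protein of striated muscle, had 10, 11 and 6 counts in the T0 cultures, 13, 20 and 13 at T7-RA, 29, 9 and 17 at T14-RA, 5, 8 and 6 at T7+RA and 17, 5 and 6 at T14+RA, with an RA change of -1.12 ± 0.27 (SE, adjusted p = 0.00142 by edgeR). Snx3, a sorting nexin of endosomes, had a T14 change of 0.50 ± 0.15 (SE, adjusted p = 0.00707 by edgeR), and Rfwd3, a ubiquitin ligase of the DNA damage response, one of -1.08 ± 0.31 (SE, adjusted p = 0.00463 by edgeR).

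Tug1, introduced above, had 15, 13 and 10 counts in the T0 cultures, 21, 19 and 18 at T7-RA, 15, 13 and 6 at T14-RA, 20, 21 and 22 at T7+RA and 17, 9 and 20 at T14+RA. In CPM its -RA cultures at day 7 were above T0 and below the +RA cultures, but the changes of 0.22 ± 0.31 (SE, adjusted p = 0.671 by edgeR) for T7 and 0.29 ± 0.23 (SE, adjusted p = 0.49 by edgeR) for RA did not pass. The other genes with a symbol described here were called for no term. Arid5b, a DNA-binding regulator, had a T14 change of -0.62 ± 0.20 (SE, adjusted p = 0.0102 by edgeR). Rc3h1, an RNA-binding protein of mRNA decay, had 0.36 (SE 0.23) for T14. For RA, Grm4, a metabotropic glutamate receptor, had 0.54 ± 0.22 (SE, adjusted p = 0.0936 by edgeR), and Gtf2ird2, of the TFII-I family, -0.53 ± 0.24 (SE, adjusted p = 0.143 by edgeR). Hs6st3, a heparan sulfate sulfotransferase, had an RA change of -0.40 (SE 0.47).

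The share of a library's counts that fell on the 145 genes was 0.377 ± 0.0239% at T0, 0.364 ± 0.0179% at T7-RA, 0.377 ± 0.0117% at T14-RA, 0.400 ± 0.00837% at T7+RA and 0.383 ± 0.0119% at T14+RA (mean ± SD, n = 3). The 3 T7+RA libraries were above the 3 T7-RA libraries, by 0.0360 percentage points (two-sided exact permutation p = 0.1, 0.5 after Benjamini-Hochberg adjustment over 5 comparisons), and 0.1 is the smallest p that 3 against 3 can give. Without Itgb5, that difference was 0.000436 percentage points. The other 4 comparisons overlapped, with exact permutation p of 0.6 for T14+RA against T14-RA, 0.5 and 1 for T7-RA and T14-RA against T0, and 0.4 between T14-RA and T7-RA. Without Itgb5, the differences of T14+RA against T14-RA and of T7-RA and T14-RA against T0 changed sign.

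By position, 20p12 held the most of these genes, 13 of the 201 genes of that band in the table, followed by 12q12 with 9 of 84 and 13q22 and Xq22 with 7 of 48 and 7 of 80. The called genes AABR07021544.1 and Eef1aknmt lie at 13q22 and move with different terms, RA and time. Clone names with more than 1 entry were AC134224 (3 genes), AABR07035780 (4) and AABR07030514, AABR07050283 and AC108572 (2 each). None of the entries of the other 4 clones was called in any term by edgeR. Entries of 1 clone can be pieces of 1 transcript, and reads shared between them are not resolved by the table.

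Genes that process RNA, and imprinted genes, were read from lists chosen with earlier results of these data known. The counts are therefore a description only. They stand against 8.73% (T7), 17.3% (T14) and 6.39% (RA) of all genes called. Of 14 proteins of the nuclear bodies called paraspeckles and nuclear speckles, 4 fell for T14, among them Sfpq by 0.80, Srsf2 by 0.79 and Nono by 0.66 on the log2 scale. For T7, 2 fell, Srsf2 among them, and none was called for RA. Of 10 measured proteins of small nucleolar ribonucleoprotein particles, 1 rose and 1 fell for T7, 1 rose and 2 fell for T14, and none was called for RA. Of 14 nonsense-mediated decay factors, which degrade transcripts without a proper reading frame, 1 fell for T14 (Casc3, by 0.97), 1 rose with RA (Smg6, by 1.10), and none was called for T7. Smg1, described above, is on this list as well. Of 11 measured imprinted protein-coding genes, neighbours of many known long noncoding RNAs, 4 rose for T7, 3 rose for T14 and 4 fell with RA. Peg3 rose by 1.39 for T7 and fell by 1.13 with RA, Igf2r rose by 0.77 and fell by 0.61, and Plagl1 rose by 0.93 and fell by 1.31, all on the log2 scale. The fourth that fell with RA, Slc38a4, by 1.22, had time changes of -0.60 for T7 and -0.71 for T14, neither called, and Igf2 rose by 1.57 for T7 and 1.81 for T14. For T7 the median log2 changes were -0.18 for the speckle, -0.47 for the nucleolar, -0.18 for the decay and 0.78 for the imprinted list, against 0.02 over all genes. For T14 they were -0.31, -0.53, -0.25 and 0.36, against 0.05, and for RA -0.06, 0.01, -0.08 and -0.38, against -0.01.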

How the data were processed

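Poly(A)-selected RNA of 15 H9c2 cultures was sequenced. The authors trimmed and mapped the reads on Galaxy with HISAT2, counted them per gene with featureCounts, and deposited raw counts for genes with more than 20 counts in all. The submitters' processing notes name Rnor 6.0, and the annotation release is not given in the sources used here. Symbols, types, cytogenetic bands and a size column (unit other, read as the longest transcript in bases) came from the deposited table. Counts were fitted in edgeR 4.0.16 (R 4.3.3) with TMM scaling, T7, T14 and RA terms or group means, robust quasi-likelihood tests and Benjamini-Hochberg adjustment over 11574 genes, called at 0.001 (the day difference at 0.05). Library totals of 508397 to 1030820 limit the precision, and genes of few counts can move far without a call. Named are genes with a symbol, the 10 largest called changes of each term and the 10 highest mean CPM. Alternatives were other scalings, filters (mean count of at least 10, edgeR's filter), DESeq2 1.42.0, limma 3.58.1 (voom, and quantile-normalized log2(count + 1)), a replicate block and each library left out. Scripts were tested on simulated data. Intervals are 95% exact. Promoters came from RefSeq GRCr8. Some single genes of the set and of the lists are not reported here. The gene lists and the rule for the 145 genes were chosen with earlier results of these data known.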

Additional observations from a re-analysis of the deposited data

How the results depend on the processing

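No called change of a named gene reversed under any alternative run, and all listed alternatives were run. Of 36 called changes, 36 stayed called with RLE size factors and with the replicate block, 35 with library sizes alone, 29 with limma-voom, 27 with DESeq2 and 16 with limma on quantile-normalized values; over single libraries left out, 496 of 540 did. At an adjusted p of 0.05 the edgeR counts were 17 (T7), 29 (T14), 11 (RA), 10 (RA at day 7), 8 (RA at day 14) and 6 (T14-RA against T7-RA). DESeq2 called 4 for T7. Limma on quantile-normalized values called 2 for T7, 4 for RA, 1 for RA at day 14 and 0 for T14-RA against T7-RA. The cause of these differences was not tested. Leaving out single libraries gave 3 to 8 for T7 (3 without T0 replicate 1), 10 to 16 for T14, 4 to 8 for RA (4 without T14-RA replicate 1), 2 to 4 for RA at day 7, 3 to 4 for RA at day 14, 0 to 1 for T14-RA against T7-RA and 0 to 1 for the day difference. Replicate numbers did not pair the cultures (mean correlation of deviations 0.018, from -0.035 to 0.099). Chi-square per gene between cultures of a group, about 1 for counting error alone, was 1.96 to 2.77 within T0. Within the other groups it was 1.07 to 1.86, while all groups shared 1 estimate of the spread. The replicate block called 8 for T7, 15 for T14, 7 for RA, 4 at each day and 1, AABR07001382.1, for the day difference (edgeR adjusted p = 0.0122). Without Itgb5 the share difference turned to -0.0167 percentage points for T14+RA against T14-RA, 0.0189 for T7-RA against T0 and 0.0277 for T14-RA against T0. The last, -2.62e-05 as reported, lay between -0.0138 and 0.00789 with single libraries left out, and was positive without T0 replicate 1 (0.00578) or 3 (0.00789) and T14-RA replicate 2 (0.00430) or 3 (0.00231). Library sizes alone shifted the median of all genes to 0.13 for T7 and 0.15 for T14, and those of the 145 genes to 0.23 and 0.14. Depth limits the genes under a mean count of 10.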

Other observations

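The lincRNA and antisense genes taken without the processed_transcript genes, a split made after the values were seen, held 0.127 ± 0.0018% of the counts at T0, 0.148 ± 0.00659% at T7-RA, 0.159 ± 0.00587% at T14-RA, 0.143 ± 0.00222% at T7+RA and 0.159 ± 0.00485% at T14+RA (mean ± SD, n = 3). The T0 libraries lay between 0.126% and 0.129%, below all 12 later libraries, which lay between 0.140% and 0.164%. No test was made on this share.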
